A study of Mus musculus with 20 samples.

Results

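The comparison covered 6 of the 20 RNA-seq libraries of the series, 3 from macrophages given siRNA against Brg1 and 3 from macrophages given control siRNA, all without an inflammatory stimulus, and all 17787 genes of the deposited table. The libraries were chosen by their sample labels alone. The cells were bone marrow-derived macrophages from male wild type C57BL/6J mice, grown from marrow for 7 days with supernatant of L929 cells, a source of the macrophage growth factor CSF1. Both groups were transfected with 50 nM siRNA in medium without serum, 1 siRNA product for each arm, and were harvested after 48 h of silencing. Both received vehicle, 0.1% ethanol with 0.1% D-PBS, for the last 6 h. The series also holds both siRNAs with 100 ng/ml LPS (and 0.1% ethanol), 3 libraries per siRNA, and with 1 µM dexamethasone and 100 ng/ml LPS, 4 libraries per siRNA. The labels do not say whether replicates came from separate animals or cultures, so p-values measure the spread between these libraries only. With 1 siRNA product per arm, loss of Brg1 and any other effect of that product cannot be told apart.

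Brg1, encoded by Smarca4, is an ATPase of the BAF (mammalian SWI/SNF) complexes, which use ATP to slide or evict nucleosomes and so make promoters and enhancers accessible to transcription factors. A BAF complex holds either Brg1 or its paralog Brm (Smarca2). Resting macrophages keep a set of enhancers open that are bound by the lineage factor PU.1 together with other factors, and in the absence of infection they still express interferon-response, lipid-handling, lysosomal and chemokine genes at a basal level.

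Smarca4 (chr9:21616169-21704230 in the GENCODE annotation of GRCm38, a build named in the submitters' notes) was counted at 1476, 1538 and 1626 normalized counts in control libraries, against 365, 358 and 340.2 in Brg1 siRNA libraries. The groups did not overlap, and the transcript was 4.36-fold lower after Brg1 siRNA (log2 difference -2.12 ± 0.085, adjusted p = 1.50e-11). Here and below ± is the standard error from limma, with 3 libraries per group, and positive values are higher after Brg1 siRNA. Smarca2 was not called (log2 difference 0.01 ± 0.33, adjusted p = 1), and its groups overlapped. Of 24 BAF subunit genes tested, 0 were higher and 2 were lower, Smarca4 itself and Actl6a, a subunit shared with other remodellers (-0.31). Both shares lie below the 9.39% higher and 10.8% lower of all tested genes. None of the 19 genes for other remodelling ATPases passed the test in either direction.

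The vehicle libraries held 13694895 to 15678121 reads in genes. The first principal component of the 6 libraries (38.8% of the variance) separated the siRNA groups. The summed level of 16 macrophage markers was 431106 to 449443 normalized counts in the control libraries and 524197 to 536258 in the Brg1 siRNA libraries, and of those 16 genes 5 were higher and 5 lower. The lineage factor PU.1 (Spi1) and the surface markers Adgre1 and Itgam were not called (log2 differences -0.05, -0.11 and -0.01), and lysozyme (Lyz2) was higher by 0.50. The members called lower included Csf1r, Cd14, C1qa and Tyrobp, whose values are given below. Transcripts of the mitochondrial genome took 1.94 to 2.22% of counts with control siRNA and 1.53 to 1.69% with Brg1 siRNA. Markers of other cell types are summed here over all list members in the deposited table, tested or not. The 12 mast cell, basophil and eosinophil markers summed to 825 to 931 with control siRNA and 193 to 224 with Brg1 siRNA. For the 12 neutrophil markers the sums were 665 to 788 and 1665 to 1857, mostly Csf3r. For the 4 B cell markers they were 630 to 703 and 53.2 to 70.8, mostly Ighm. In these lists 6, 8 and 2 members were tested. The T and NK, dendritic, and fibroblast, stromal and endothelial lists had 0 of 2, 3 of 6 and 1 of 2 tested members called. The 11 dendritic markers summed to 3804 to 4369 with control siRNA and 3423 to 3684 with Brg1 siRNA. In the same order the 8 stem and progenitor markers summed to 445 to 746 and 838 to 895. The 5 erythroid and megakaryocyte markers summed to 77.8 to 92.6 and 160 to 175. For the 8 fibroblast, stromal and endothelial markers the sums were 317 to 365 and 619 to 710. The mast cell protease Cpa3, the eosinophil ribonuclease Ear1, the neutrophil antigen Ly6g, the B cell receptor chain Cd79a, the progenitor receptor Flt3 and the fibroblast genes Dcn and Pdgfra had 0 counts in all 6 libraries. Members at 0 throughout were 2 of 12 mast cell, basophil and eosinophil markers, and 1 of 12 neutrophil markers. They were 1 of 4 B cell, 1 of 8 stem and progenitor, and 2 of 8 fibroblast, stromal and endothelial markers. The other members so summed had counts in 1 or more libraries. In bulk libraries, fewer cells of a type and less RNA per cell cannot be told apart, and the part that these markers have in any result was not tested.

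Of 12061 genes tested, 1132 were higher (9.39%) and 1298 were lower (10.8%) after Brg1 siRNA, 20.1% in all, at a limma adjusted p under 0.05. The counts of the gene lists below are to be read against these shares. The median log2 difference of called genes was 0.54 for those that rose and -0.54 for those that fell, and that of all tested genes was 0.005. A change of at least 2-fold was seen in 181 genes that rose and 278 that fell, and of at least 4-fold in 22 and 67. The values of the siRNA groups did not overlap for 46.1% of all tested genes. Changes of 4-fold or more were thus more often falls, as the plot of change against level shows. Scaled to plain library totals, 969 genes were higher and 1596 lower. In the authors' deposited table the same contrast has 1310 genes higher and 1474 lower, and 2370 of the calls are shared with no opposite direction.

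**Figure D1:**
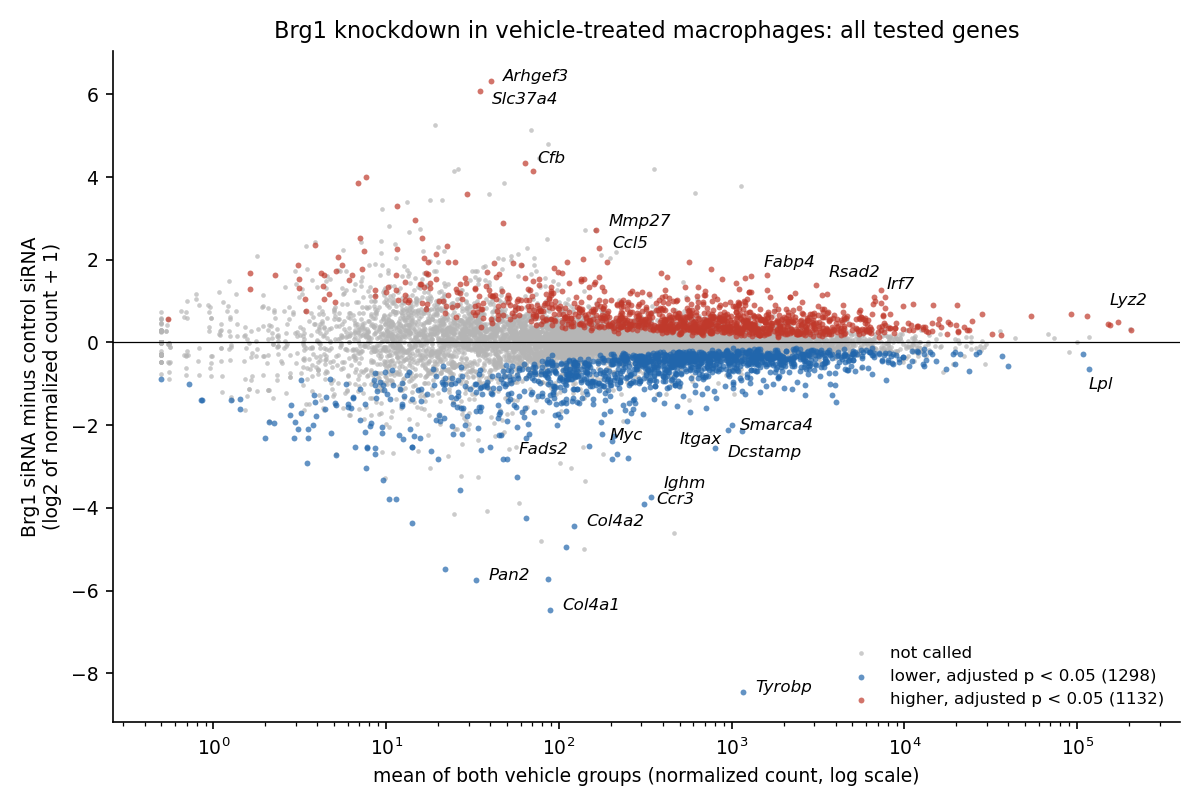
Each of 12061 tested genes is a point, with the mean normalized count over the 6 vehicle libraries on the horizontal axis (log scale, means under 0.5 drawn at 0.5) and the log2 difference, Brg1 siRNA minus control siRNA, on the vertical axis; coloured points passed the limma test (1132 higher, 1298 lower). Among changes of at least 4-fold, 67 genes such as Col4a1 (-6.46) lie below 0 and 22 such as Ccl5 (2.29) above it.

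Interferon-response genes rose together: 23 of 35 antiviral effectors, 10 of 13 interferon-inducible GTPases and 16 of 22 genes of MHC class I antigen processing were higher, against 9.39% of all tested genes. None of the effectors or GTPases was lower, and 1 MHC class I gene was. The median log2 differences of these lists were 0.40, 0.81 and 0.57. Interferons bind paired receptor chains, whose kinases phosphorylate STAT proteins, and a STAT complex with IRF9 then binds the interferon-stimulated response element of target promoters.

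The element is shown here in 3 promoters of genes that rose, an antiviral effector, the enzyme viperin and a GTPase. Each run is the 300-base window around the RefSeq start site, on the gene's strand (RefSeq, GRCm38.p6), with most of its length before that site. Capitals mark matches to GAAANNGAA on either strand. The windows are chr19:34583279-34583578 (plus strand) for Ifit3, chr12:26456403-26456702 (minus strand) for Rsad2 and chr3:142620413-142620712 (plus strand) for Gbp2.
Ifit3: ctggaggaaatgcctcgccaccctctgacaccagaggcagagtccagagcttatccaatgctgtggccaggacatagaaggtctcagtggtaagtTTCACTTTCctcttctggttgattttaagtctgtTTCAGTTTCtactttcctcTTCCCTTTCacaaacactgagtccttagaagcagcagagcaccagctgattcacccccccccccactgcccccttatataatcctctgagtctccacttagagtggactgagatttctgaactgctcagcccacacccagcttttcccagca
Rsad2: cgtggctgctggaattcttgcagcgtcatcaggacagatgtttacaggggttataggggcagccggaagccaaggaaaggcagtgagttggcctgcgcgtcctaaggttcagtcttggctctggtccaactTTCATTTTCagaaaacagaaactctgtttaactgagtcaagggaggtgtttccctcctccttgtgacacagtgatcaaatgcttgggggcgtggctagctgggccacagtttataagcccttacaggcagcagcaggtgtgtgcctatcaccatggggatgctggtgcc
Gbp2: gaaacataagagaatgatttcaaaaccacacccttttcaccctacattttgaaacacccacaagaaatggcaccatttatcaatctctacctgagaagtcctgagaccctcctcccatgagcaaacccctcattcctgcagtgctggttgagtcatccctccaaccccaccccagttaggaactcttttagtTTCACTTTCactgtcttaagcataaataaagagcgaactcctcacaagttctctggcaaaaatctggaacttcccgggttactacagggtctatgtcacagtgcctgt
Ifit3 has 3 matches, 155, 121 and 102 bases before the start site, all on the minus strand. Rsad2 has 1 match 119 bases before it, and Gbp2 has 1 match 58 bases before it. Among genes with a window, 55.2% of the 29 antiviral effectors have at least 1 match. That share is 14.2% for the 909 genes that rose and 8.91% for all 9368 tested genes. A match is a description of the letters and not evidence of binding.

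Of 6 interferon ligands and receptors tested, 1 was higher and 2 were lower. Interferon beta (Ifnb1) had 0 counts in all 6 libraries. The type I receptor chain Ifnar1 was lower (-0.47), and the type II receptor chain Ifngr1 was higher by 0.21. Without single libraries the call of Ifngr1 was lost in 5 of 6 cases, with adjusted p up to 0.114. Of 15 signalling factors 5 were higher and 1 was lower. Irf7, the factor that amplifies type I interferon production, was counted at 4319, 5016 and 3491 normalized counts in control libraries, against 9322, 9031 and 8870.0 in Brg1 siRNA libraries. Every Brg1 siRNA library was above every control library, and Irf7 was 2.12-fold higher (log2 difference 1.10 ± 0.11, adjusted p = 7.20e-07). Stat2 rose by 0.62 on the log2 scale, as did Usp18, a brake on receptor signalling (0.66), and Irf1 (0.43). The member that fell was Socs3, an inhibitor of cytokine receptor signalling (-0.99).

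Of 18 nucleic acid sensors and adaptors, 5 rose and 1 fell. Zbp1, a sensor of Z-form nucleic acid, was counted at 806, 852 and 682 normalized counts in control libraries, against 1824, 1683 and 1903 in Brg1 siRNA libraries. These values did not overlap, and the log2 difference was 1.21 ± 0.076 (adjusted p = 3.94e-09). The RNA helicases Ddx58 (RIG-I) and Dhx58 (LGP2) rose by 0.44 and 0.40. The endosomal DNA receptor Tlr9 was the member that fell (-0.77).

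Among the effectors, Rsad2 (viperin, chr12:26442746-26456452) was counted at 1704, 1937 and 1474 normalized counts in control libraries, against 4666, 4161 and 4505 in Brg1 siRNA libraries. The lowest Brg1 siRNA library lay above the highest control library, and the gene was 2.61-fold higher (log2 difference 1.39 ± 0.13, adjusted p = 3.99e-07). The transcript of Mx1, a gene of the dynamin-like GTPase family, rose by 0.93, and that of Ifit2, an RNA-binding effector, by 1.10. Ifit3 (0.93) and Ifit3b (1.22) have near copies in the genome (61.8% and 55.2% of their 31-base words recur elsewhere in the transcriptome), and the split of reads between them is uncertain. Among the GTPases, which attack vacuoles that hold pathogens, Gbp2 (chr3:142620602-142638008) was counted at 553, 529 and 426 normalized counts in control libraries, against 1193, 1052 and 1017 in Brg1 siRNA libraries. The groups were separate here too, with a log2 difference of 1.12 ± 0.10 (adjusted p = 3.99e-07). Iigp1 was the GTPase with the highest difference (1.68 ± 0.16, 49.4, 62.1 and 37.6 against 172, 145 and 159 normalized counts).

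In the MHC class I list, both subunits of the peptide transporter were higher. Tap1 was counted at 1229.5, 1334 and 1099 normalized counts in control libraries, against 2127, 1867 and 1846 in Brg1 siRNA libraries, and Tap2 differed by 0.68. No control library reached the lowest Brg1 siRNA library for Tap1 (log2 difference 0.67 ± 0.097, adjusted p = 5.97e-05). Psmb9, a subunit of the immunoproteasome that cuts antigen into peptides, rose by 0.84. The member that fell was the chaperone calreticulin (Calr, -0.56). The class Ib heavy chain gene H2-Q6 had the highest difference of the list (1.26), but 50.3% of its 31-base words occur in other genes.

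**Figure D2:**
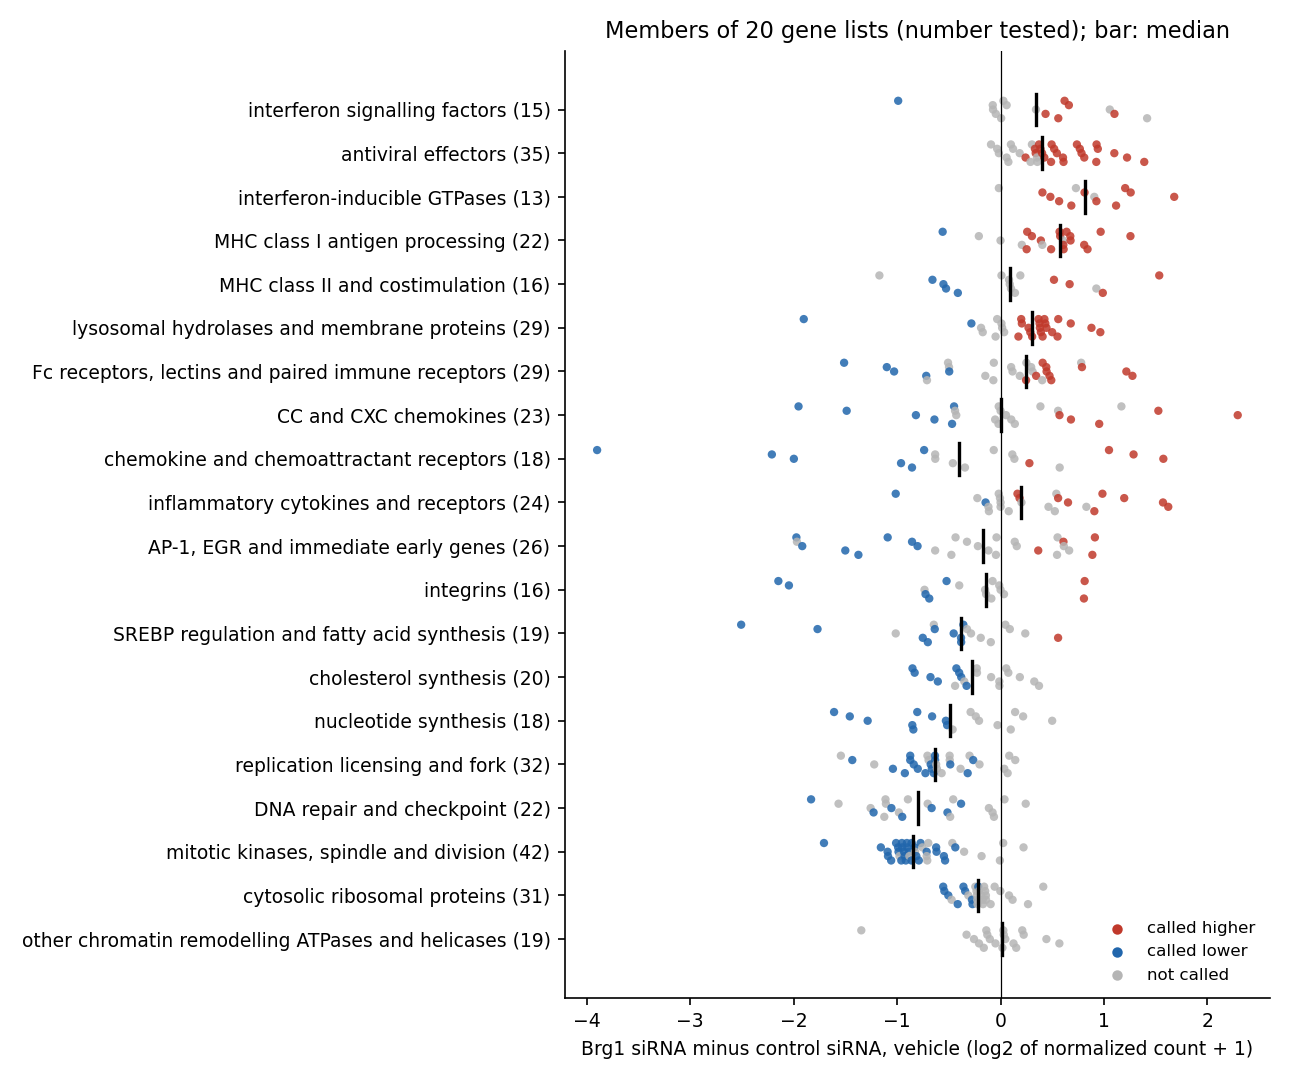
Each row is a list of genes and each point a tested member at its log2 difference, Brg1 siRNA minus control siRNA in vehicle; coloured points passed the limma test and the black bar is the median of the list. Antiviral effectors, GTPases and MHC class I genes lie to the right of 0, with medians of 0.40, 0.81 and 0.57, and mitotic and replication genes to the left, with medians of -0.85 and -0.63.

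Genes of the cell division cycle fell: 29 of 42 mitotic genes, 16 of 32 replication genes, 9 of 18 nucleotide synthesis genes and 7 of 22 DNA repair and checkpoint genes were lower, against 10.8% of all tested genes, and none of them was higher. The medians of these lists were -0.85, -0.63, -0.49 and -0.80. Transcripts of mitotic genes are made mainly in G2 and M phase, through a cell cycle homology region in their promoters, and those of replication genes at the G1 to S boundary under E2F factors. The share of cells in each phase was not measured.

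Top2a, the topoisomerase that untangles sister chromatids (chr11:98992943-99024189), was counted at 1399, 1363 and 1309.8 normalized counts in control libraries, against 733, 697 and 597 in Brg1 siRNA libraries. All 3 Brg1 siRNA libraries were below all 3 control libraries, and Top2a was 2.01-fold lower (log2 difference -1.01 ± 0.11, adjusted p = 2.51e-06). Anln, an actin-binding protein of the cleavage furrow, was counted at 384, 451 and 375 normalized counts in control libraries, against 134, 124 and 111 in Brg1 siRNA libraries. The fall of Anln was the largest of the mitotic list (log2 difference -1.71 ± 0.17, adjusted p = 8.35e-07), with no overlap. Mki67, the proliferation antigen, fell by 0.95, the spindle protein Nusap1 fell by 1.09 and the spindle protein Prc1 fell by 1.09. The mitotic kinase Plk1 (-1.16) lost its call without any 1 of the 6 vehicle libraries, with adjusted p up to 0.08.

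The promoters of these 2 genes are printed because both hold TTTGAA, the core of the cell cycle homology region, marked in capitals. In the Top2a window CCAAT, the box bound by NF-Y, is in capitals as well. Both come from RefSeq (GRCm38.p6), at chr11:99024140-99024439 (minus strand) for Top2a and chr9:22389157-22389456 (minus strand) for Anln, and both strands were searched.
Top2a: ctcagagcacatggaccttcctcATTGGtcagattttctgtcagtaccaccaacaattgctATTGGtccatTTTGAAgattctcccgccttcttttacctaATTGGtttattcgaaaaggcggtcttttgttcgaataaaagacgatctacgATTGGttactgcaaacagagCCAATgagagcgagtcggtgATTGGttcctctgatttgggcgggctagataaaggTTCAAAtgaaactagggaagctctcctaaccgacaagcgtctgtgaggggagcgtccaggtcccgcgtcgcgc
Anln: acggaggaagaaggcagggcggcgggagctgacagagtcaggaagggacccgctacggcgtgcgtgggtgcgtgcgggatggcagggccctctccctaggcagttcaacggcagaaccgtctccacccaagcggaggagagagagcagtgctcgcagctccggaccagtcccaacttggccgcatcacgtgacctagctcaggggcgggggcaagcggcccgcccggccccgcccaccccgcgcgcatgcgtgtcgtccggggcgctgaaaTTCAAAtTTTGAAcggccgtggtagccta
In Top2a the 2 TTTGAA matches lie 179 and 23 bases before the start site, and CCAAT occurs 6 times. In Anln they lie 21 and 28 bases after the start site. Of the 37 mitotic genes with a window, 81.1% hold TTTGAA and 75.7% hold CCAAT. The shares were 14.6% and 43.1% of all 9368 tested genes with a window, and 15.6% and 45.6% of the 1007 called lower.

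In the replication list, Pole, the catalytic subunit of the leading-strand polymerase, was counted at 126, 152 and 183 normalized counts in control libraries, against 53.4, 43.0 and 74.2 in Brg1 siRNA libraries. Its groups did not overlap, and the log2 difference was -1.43 ± 0.34 (adjusted p = 0.00525). Chaf1a, a chaperone that loads histones behind the fork, fell by 0.93. Of 32 replication genes, the number lower was 9 to 11 without single libraries, and it was 9 without control replicate 1 or without Brg1 siRNA replicate 2. Among nucleotide synthesis genes, Rrm2, the small subunit of ribonucleotide reductase, was counted at 421, 441 and 346 normalized counts in control libraries, against 132, 147 and 115 in Brg1 siRNA libraries. That is a fall of 3.07-fold with no overlap (log2 difference -1.61 ± 0.24, adjusted p = 8.86e-05). Thymidine kinase (Tk1) fell by 1.46. In the repair list, the checkpoint kinase Chek1 fell by 1.83 and the helicase Brip1 fell by 1.05. The count of repair genes lower was 3 without control replicate 2.

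Of 28 G1 cyclins, E2F factors and inhibitors, 3 were higher and 8 lower. Myc, a driver of growth and proliferation (chr15:61985391-61990374), was counted at 253, 283 and 301 normalized counts in control libraries, against 67.0, 67.2 and 86.1 in Brg1 siRNA libraries. Its lowest control library was well above its highest Brg1 siRNA library, and the fall was 3.80-fold (log2 difference -1.92 ± 0.14, adjusted p = 2.03e-08). Cyclin A2 (Ccna2) fell by 1.25. In contrast cyclin D3 (Ccnd3) rose by 1.14, the inhibitor p57 (Cdkn1c) by 0.50 and the D cyclin partner Cdk4 by 0.41. Of 20 p53 targets, 2 rose and 4 fell: Trp53inp1, a stress-induced regulator, rose by 1.04, while Cdkn1a (p21) fell by 0.21 and Mdm2 fell by 0.34.

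Of 26 AP-1, EGR and immediate early genes, 4 rose and 7 fell. These genes respond within minutes to growth factor and MAP kinase signals, and the dual-specificity phosphatases among them switch the kinases off again. Dusp5, the nuclear ERK phosphatase, was counted at 115, 99.4 and 101 normalized counts in control libraries, against 36.7, 18.0 and 26.4 in Brg1 siRNA libraries. The groups did not overlap, and Dusp5 was 3.89-fold lower (log2 difference -1.97 ± 0.20, adjusted p = 1.13e-06). Egr2 fell by 1.37, Fos fell by 1.09 and Dusp6, the cytoplasmic ERK phosphatase, fell by 0.86. The members that rose included Batf (0.89), an AP-1 factor that pairs with IRF proteins, and Ier3 (0.91), an early survival gene that was not called in a fit of the vehicle libraries alone (adjusted p = 0.0827).

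**Figure D3:**
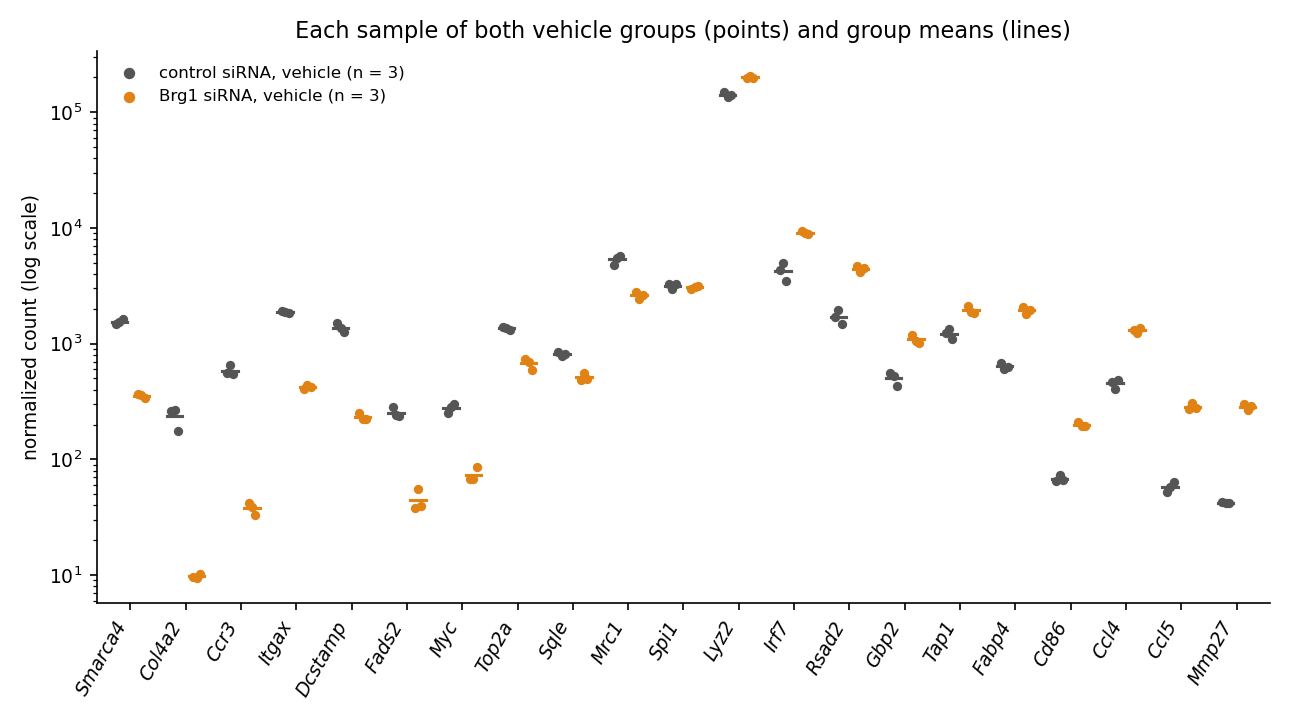
Points are the normalized counts of 21 genes in each of the 6 vehicle libraries (vertical log axis), grey for control siRNA and orange for Brg1 siRNA, with lines at the group means. The groups are separate for every gene shown except Spi1, whose control and Brg1 siRNA libraries overlap.

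Lipid synthesis genes that passed the test were nearly all lower. Of 20 genes of cholesterol synthesis 8 were lower and none higher (median -0.28), and of 19 genes of SREBP regulation and fatty acid synthesis 9 were lower and 1 was higher (median -0.38). Of all tested genes 10.8% were lower and 9.39% higher. SREBP2 drives the sterol pathway when cholesterol is low, and LXR together with SREBP1 drives fatty acid desaturation and elongation. Squalene epoxidase (Sqle), which oxidises squalene, was counted at 848, 789.7 and 808 normalized counts in control libraries, against 482, 555 and 494 in Brg1 siRNA libraries. Values were lower in each Brg1 siRNA library, without overlap (log2 difference -0.68 ± 0.067, adjusted p = 8.78e-07). Cyp51, the lanosterol demethylase, fell by 0.43.

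Fads2 and Scd1 showed larger falls. Fads2, which makes polyunsaturated fatty acids, was counted at 282, 242 and 238 normalized counts in control libraries, against 38.3, 55.5 and 39.2 in Brg1 siRNA libraries. That was 5.73-fold lower with no overlap (log2 difference -2.51 ± 0.20, adjusted p = 5.70e-08). Scd1, which makes monounsaturated fatty acids, was counted at 39.3, 50.5 and 47.2 normalized counts in control libraries, against 14.4, 10.9 and 12.8 in Brg1 siRNA libraries. It fell by 1.77 ± 0.35 (adjusted p = 0.00128), and Scd2 fell by 0.64. The elongase Elovl5 was the member that rose (0.56).

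LXR targets were split. Of 13 tested, 5 were higher and 4 lower, with a median of -0.10. The cholesterol exporter Abca1 fell by 0.65, lipoprotein lipase (Lpl) fell by 0.63, and Lpcat3, which builds polyunsaturated phospholipids, fell by 0.87. Apolipoprotein E (Apoe) rose by 0.90 and the receptor itself, LXR alpha (Nr1h3), by 0.63. Of 14 genes of lipid uptake and storage, 5 rose and 2 fell. Fabp4, a fatty acid carrier of macrophages and adipocytes, was counted at 682, 604 and 622 normalized counts in control libraries, against 2056, 1819 and 1970.5 in Brg1 siRNA libraries. No overlap was seen, and Fabp4 was 3.06-fold higher (log2 difference 1.61 ± 0.13, adjusted p = 5.70e-08). Fabp5, at -191.5 kb from Fabp4, rose by 0.91, while the fatty acid receptor Cd36 fell by 0.58.

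Matrix protein genes were among the largest falls. Of 17 basement membrane and matrix genes, 7 were lower and 1 higher. Col4a1 (minus strand, chr8:11198423-11312826) and Col4a2 (plus strand, chr8:11312805-11449287) encode the chains of collagen IV, the network of basement membranes, and are transcribed away from each other from neighbouring start sites. Col4a1 was counted at 198, 187 and 142 normalized counts in control libraries, against 0, 0 and 6.82 in Brg1 siRNA libraries. Col4a2 was counted at 264, 266 and 175 normalized counts in control libraries, against 9.57, 9.38 and 10.2 in Brg1 siRNA libraries. For both genes the Brg1 siRNA libraries were all below the control libraries, with log2 differences of -6.46 ± 1.17 (adjusted p = 5.68e-04) and -4.43 ± 0.24 (adjusted p = 6.88e-10).

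The window of Col4a1, shown because its start site faces that of Col4a2, is chr8:11312777-11313076 on the minus strand (RefSeq, GRCm38.p6), and the only match to CCAAT on either strand is in capitals.
Col4a1: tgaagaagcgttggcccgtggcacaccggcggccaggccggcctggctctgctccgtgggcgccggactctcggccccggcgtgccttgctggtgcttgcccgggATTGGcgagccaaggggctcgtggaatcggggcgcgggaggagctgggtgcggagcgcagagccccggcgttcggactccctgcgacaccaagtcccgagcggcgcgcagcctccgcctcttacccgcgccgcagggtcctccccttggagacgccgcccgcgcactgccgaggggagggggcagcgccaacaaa
It has a GC content of 74% and 37 CpG dinucleotides. The CCAAT match lies 145 bases before the start site.

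Other matrix genes moved less. Vcan, a large proteoglycan, fell by 1.58, Tgfbi, a secreted adhesion protein, fell by 1.27 and osteopontin (Spp1) fell by 0.57. Of 17 metalloproteinases, ADAMs and inhibitors, 2 rose and 4 fell, against 9.39% and 10.8% of all tested genes. Mmp9, which degrades gelatin and collagen IV, was counted at 29.3, 40.6 and 26.2 normalized counts in control libraries, against 3.99, 4.69 and 4.26 in Brg1 siRNA libraries. Its fall was 7.43-fold and the groups did not overlap (log2 difference -2.61 ± 0.21, adjusted p = 9.32e-08). Mmp27 was counted at 42.7, 42.3 and 41.9 normalized counts in control libraries, against 302, 267 and 287 in Brg1 siRNA libraries. That gene was 6.75-fold higher without overlap (log2 difference 2.72 ± 0.23, adjusted p = 1.19e-07).

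Of 16 integrins, 2 were higher and 5 lower. Itgax, the CD11c chain that marks dendritic cells and many tissue macrophages, was counted at 1906, 1874 and 1826 normalized counts in control libraries, against 403, 439 and 420.4 in Brg1 siRNA libraries. Control and Brg1 siRNA libraries were fully separate, and Itgax was 4.44-fold lower (log2 difference -2.15 ± 0.075, adjusted p = 3.47e-12). Itgam (CD11b), at -66.9 kb from Itgax, differed by -0.01 (adjusted p = 0.948). Itgb8, which activates latent TGF-beta, fell by 2.05. Genes of macrophage fusion and osteoclast function were also lower in part: of 9 markers of alveolar and osteoclast-like macrophages 5 were lower and 2 higher. Dcstamp, the transmembrane protein needed for cell fusion, was counted at 1503, 1371 and 1256 normalized counts in control libraries, against 252, 224 and 223 in Brg1 siRNA libraries. It was 5.92-fold lower in the absence of overlap (log2 difference -2.56 ± 0.19, adjusted p = 4.32e-08). Cathepsin K (Ctsk), the collagenase of osteoclasts, fell by 1.90. The scavenger receptor Marco and the phosphatase Acp5 were the members that rose (0.87 and 0.77).

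Chemokine genes changed in both directions: of 23 tested, 5 were higher and 6 lower. Ccl5, a chemoattractant for T cells and monocytes (chr11:83525778-83530518), was counted at 51.9, 57.2 and 63.8 normalized counts in control libraries, against 273, 304 and 279.7 in Brg1 siRNA libraries. Brg1 siRNA libraries were 4.96-fold higher with no overlap (log2 difference 2.29 ± 0.098, adjusted p = 2.87e-11). Ccl4, a chemoattractant for monocytes and T cells, was counted at 469, 402 and 488 normalized counts in control libraries, against 1305, 1235 and 1364 in Brg1 siRNA libraries. The same direction held in every library (log2 difference 1.53 ± 0.069, adjusted p = 5.44e-11). Ccl3 rose by 0.57, Ccl6 by 0.68 and the platelet factor Pf4 by 0.95. Ccl22, a ligand of CCR4, fell by 1.49, and Cxcl16 fell by 0.45.

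Of 18 chemokine and chemoattractant receptors, 4 were higher and 6 lower. Ccr3, the eotaxin receptor (chr9:124021972-124031689), was counted at 552, 657 and 542 normalized counts in control libraries, against 42.3, 39.1 and 33.3 in Brg1 siRNA libraries. It was 15.3-fold lower without overlap (log2 difference -3.90 ± 0.27, adjusted p = 1.56e-08). Ccr3 is also a marker of eosinophils, and Siglecf, another such marker, fell by 1.80. Of the 6 tested mast cell, basophil and eosinophil markers 3 were lower, 1 was higher and 2 were not called. Ccr3 itself, at a mean of 584 and 38.2 normalized counts (standard deviations 63.8 and 4.57), made up most of the fall in the summed level of the whole marker list. Cx3cr1, the fractalkine receptor of monocytes and tissue macrophages, was counted at 329.8, 316 and 233 normalized counts in control libraries, against 59.8, 63.3 and 62.2 in Brg1 siRNA libraries. Brg1 siRNA libraries were all lower (log2 difference -2.21 ± 0.48, adjusted p = 0.00253), and Ccr2, the receptor for monocyte exit from marrow, fell by 2.00 (not called with a pseudocount of 0.5, adjusted p = 0.0551). Cxcr3 rose by 1.57.

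Opposite calls lay side by side in several clusters. Around Ccr3, Ccr1 at -59.8 kb fell by 0.86, Ccr2 on the other side fell by 2.00, and Fyco1 at -232.5 kb rose by 0.98. In the chemokine cluster that holds Ccl5, Ccl3 and Ccl4, which rose, Ccl9 fell by 0.47. In the metalloproteinase cluster Mmp13 rose by 0.94 and Mmp27 by 2.72, Mmp12 fell by 0.51, and Mmp8 was not called (0.08). Over all called genes with a tested neighbour, the next gene along the chromosome was called higher for 175 of 1132 genes that rose (15.5%) and lower for 185 of 1296 that fell (14.3%), against 9.39% and 10.8% of all tested genes. The next gene was called in the opposite direction for 11.3% and 8.33%, near the 10.8% lower and 9.39% higher of all tested genes.

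**Figure D4:**
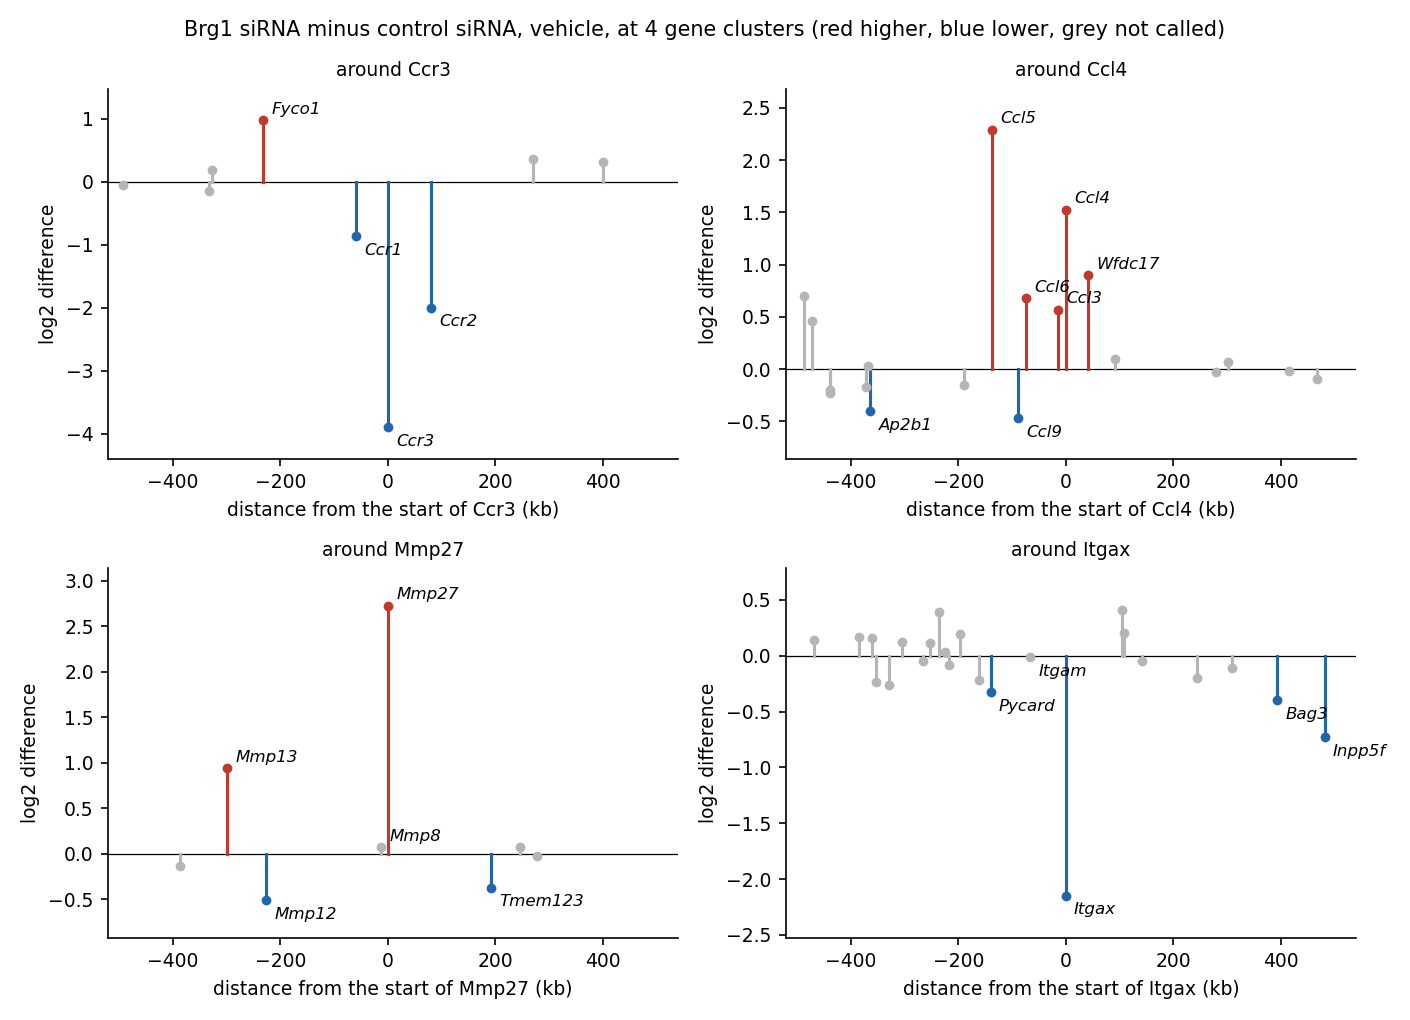
In each panel the horizontal axis is the distance of a gene from the named gene in kb, between their lower chromosome coordinates, whatever the strand. The vertical axis is the log2 difference, Brg1 siRNA minus control siRNA. Tested genes with a mean of at least 10 normalized counts in 1 of the vehicle groups are shown, and coloured points passed the limma test. Higher and lower genes stand beside each other in the Ccr3, Ccl4 and Mmp27 panels, and Itgam near 0 stands beside Itgax at -2.15.

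Of 24 inflammatory cytokines and receptors, 9 were higher and 2 lower, and Il6 had 0 counts in all 6 libraries. Il1rn, the interleukin-1 receptor antagonist, was counted at 612, 662 and 530.4 normalized counts in control libraries, against 1766, 1698 and 1883 in Brg1 siRNA libraries. Values with Brg1 siRNA were 2.96-fold higher and separate (log2 difference 1.57 ± 0.11, adjusted p = 2.07e-08). Il18bp, the decoy for interleukin-18, rose by 1.20. The anti-inflammatory cytokine Il10 fell by 1.01. Tnf was higher by 0.18, a call that was lost without single libraries in 4 of 6 cases, with adjusted p up to 0.114.

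Of 23 Toll-like receptors and adaptors, 6 were higher and 2 lower. Cd180, an LPS receptor homologue, rose by 0.92, and Ly96 (MD-2), which binds LPS within the TLR4 complex, by 0.53. The LPS co-receptor Cd14 was counted at 4288, 3691 and 3852 normalized counts in control libraries, against 2328, 2850.1 and 2634 in Brg1 siRNA libraries. It was lower in each Brg1 siRNA library (log2 difference -0.60 ± 0.11, adjusted p = 5.98e-04). Of 16 NF-kappaB factors and inhibitors, 2 rose and 3 fell. Ikbke, a kinase upstream of IRF3, rose by 0.98, while Nfkbiz, a nuclear cofactor for secondary response genes, fell by 1.03 and Tnip3, an inhibitor of NF-kappaB signalling, fell by 1.68.

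Costimulatory and MHC class II genes differed within 1 list of 16, with 4 higher and 4 lower. Cd86, the ligand of CD28, was counted at 65.3, 72.9 and 66.4 normalized counts in control libraries, against 210.5, 194 and 194 in Brg1 siRNA libraries. The groups were separate, with a 2.92-fold rise (log2 difference 1.53 ± 0.12, adjusted p = 9.32e-08). The checkpoint ligand Cd274 (PD-L1) rose by 0.99 and Cd40 by 0.52. The invariant chain Cd74 fell by 0.66, the class II chain H2-Aa fell by 0.55 and H2-Ab1 fell by 0.41. Their transactivator Ciita differed by -0.53, and that call was lost without single libraries in 3 of 6 cases (adjusted p up to 0.107).

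Of 17 complement components and receptors, 4 were higher and 4 lower. C3, the central component, rose by 0.72, and C1qa, a chain of the C1q recognition protein, fell by 0.39. Cfb, factor B of the alternative pathway, was counted at 8.37, 19.9 and 0 normalized counts in control libraries, against 151, 100.1 and 103 in Brg1 siRNA libraries. The groups did not overlap and the log2 difference was 4.33 ± 0.64 (adjusted p = 7.50e-05), but 75.5% of the 31-base words of Cfb occur in other genes.

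Of 29 Fc receptors, lectins and paired receptors, 10 were higher and 5 lower, with a median of 0.25. Fcgr4, an activating receptor for IgG2, rose by 1.22, and Fcgr2b, the inhibitory one, by 0.49. The lectins Mrc1 (mannose receptor) and Clec10a, known markers of alternative activation, fell. Mrc1 was counted at 4757, 5522 and 5748 normalized counts in control libraries, against 2787, 2439 and 2612 in Brg1 siRNA libraries. That is a separate and 2.04-fold lower level (log2 difference -1.03 ± 0.090, adjusted p = 2.09e-07), and Clec10a fell by 1.51. Of 13 alternative activation genes, 2 were higher and 5 lower. Of 16 efferocytosis and scavenger receptor genes, 6 were higher and 4 lower: Mertk, a receptor for dying cells, rose by 0.50, as did its ligand Gas6 (0.59) and the bridging protein Mfge8 (0.62).

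Most lysosomal genes rose: of 29 hydrolases and membrane proteins 20 were higher, 2 lower and 7 not called, with a median of 0.31, against 9.39% of all tested genes higher and 10.8% lower. Npc2, which hands cholesterol on inside lysosomes, was counted at 22434, 20746 and 21678 normalized counts in control libraries, against 34202, 34519 and 35024 in Brg1 siRNA libraries. All Brg1 siRNA values exceeded all control values (log2 difference 0.68 ± 0.077, adjusted p = 4.69e-06). Cathepsin Z (Ctsz) rose by 0.56. The members that fell were Ctsk and the proton pump subunit Atp6v0d2 (-0.28), which are also on the osteoclast-like list. The call of Atp6v0d2 was lost without any 1 of the 6 libraries (adjusted p up to 0.0838).

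Of 30 growth factor receptors and lineage factors, 4 were higher and 8 lower. Csf3r, the G-CSF receptor of neutrophils and their precursors, was counted at 538, 575 and 611 normalized counts in control libraries, against 1501, 1488 and 1670.3 in Brg1 siRNA libraries. It was 2.70-fold higher with no overlap (log2 difference 1.43 ± 0.087, adjusted p = 2.87e-09), and was the only 1 of 8 tested neutrophil markers called. Csf1r, the receptor for CSF1, fell by 0.24, the transcription factor Klf4 fell by 0.65, Bhlhe40 fell by 0.50 and Mitf fell by 0.30.

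Of 23 glycolysis and hypoxia genes, 4 were higher and 4 lower. Pfkfb3, which raises the activator of phosphofructokinase, rose by 0.79, and the glucose transporter Slc2a1 fell by 0.42. Of 27 nuclear genes of oxidative phosphorylation 2 were lower and none higher, below the 10.8% and 9.39% of all tested genes. Mitochondrially encoded transcripts had a median of -0.37, with 1 of 13 lower. Of 31 cytosolic ribosomal protein genes 9 were lower and none higher (median -0.22). The ribosomal count was 4 without control replicate 1.

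Stress pathways changed in part. Of 21 NRF2 targets and iron genes, 1 was higher and 5 lower, among them the quinone reductase Nqo1 (-0.74) and Gclm, a subunit of the glutathione-making ligase (-0.67). Of 19 genes of the unfolded protein response and ATF4, 3 were higher and 5 lower. Ddit3 (CHOP) rose by 0.46, while the serine synthesis enzyme Psat1 fell by 1.13 and the chaperone Hsp90b1 fell by 0.52. Of 24 inflammasome and cell death genes, 8 were higher and 4 lower, with the pore former Gsdmd up by 0.45.

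Of 13 purinergic and adenosine genes, 5 were higher and 3 lower. P2ry13, an ADP receptor, rose by 0.97, and Adora2a, the adenosine receptor that restrains inflammation, was counted at 3.35, 10.8 and 5.24 normalized counts in control libraries, against 0, 0.782 and 3.41 in Brg1 siRNA libraries. The groups overlapped, the log2 difference was -1.78 ± 0.38 (adjusted p = 0.00243), and edgeR did not call it (adjusted p = 0.056). Of 18 glucocorticoid receptor targets 2 rose and 2 fell, a share near the 20.1% of all tested genes called: Tsc22d3 (GILZ) rose by 0.73 and Fkbp5, a chaperone of the receptor, fell by 1.13. Of 20 Polycomb and methyltransferase genes, 1 was higher and 1 lower, below the 20.1% of all tested genes called. The H3K27 demethylase Kdm6b rose by 1.12 and Uhrf1, which maintains DNA methylation, fell by 1.40.

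Some of the largest single changes lay outside the lists of pathway genes. Tmem176b and Tmem176a, adjacent genes for membrane proteins of myeloid cells, differed by -2.82 and -2.22. Tmem176b was counted at 426, 314 and 330.3 normalized counts in control libraries, against 59.0, 50.0 and 40.1 in Brg1 siRNA libraries. The groups of Tmem176b did not overlap (adjusted p = 5.44e-10). Hpgd, which inactivates prostaglandin E2, was counted at 459, 343 and 330.3 normalized counts in control libraries, against 59.8, 57.1 and 54.6 in Brg1 siRNA libraries. Hpgd was 6.60-fold lower in the same separate way (log2 difference -2.69 ± 0.37, adjusted p = 4.06e-05). Slpi, a secreted inhibitor of neutrophil proteases, was counted at 15.1, 16.6 and 18.3 normalized counts in control libraries, against 73.3, 77.4 and 50.3 in Brg1 siRNA libraries. Each Brg1 siRNA library was higher (log2 difference 1.92 ± 0.21, adjusted p = 3.45e-06). Ighm, the immunoglobulin mu chain of B cells, was counted at 677, 606 and 618 normalized counts in control libraries, against 43.1, 43.8 and 54.6 in Brg1 siRNA libraries. This is the B cell marker that fell (-3.73).

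Reads of some named genes could have been split with near copies: 10.7 to 32.8% of the 31-base words of Itgax, Rrm2, Clec10a, Plk1, Csf3r, Uhrf1 and Lyz2 occur in other genes.

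For 3 of the genes named here 1 group was at 0. Their folds are lower bounds against a floor of 3 reads over the group. Arhgef3, a guanine nucleotide exchange factor, had 0 reads in the control group and 300 in the Brg1 siRNA group, at least 95.7-fold higher. Slc37a4, the glucose-6-phosphate transporter, had 0 and 260 reads, at least 82.9-fold higher. Pan2, a poly(A)-shortening nuclease, had 239 and 0 reads, at least 83.3-fold lower. E2f6 fell by 5.71 on the log2 scale. Without single libraries the calls of Arhgef3, Pan2 and E2f6 were lost in 6, 5 and 5 of 6 cases (adjusted p up to 0.0705, 0.0892 and 0.128), and edgeR called none of these 3. DESeq2 did not call Slc37a4 (adjusted p = 0.0658). Of all tested genes, 116 had a vehicle library below 0.1 of their own group's highest value, where that value was at least 50. Among them Tyrobp, an adaptor of activating receptors, was counted at 2920.2, 2562 and 1248 normalized counts in control libraries, against 218, 0 and 0 in Brg1 siRNA libraries. Tyrobp was called lower (adjusted p = 0.0303), and that call was lost without single libraries in 5 of 6 cases (adjusted p up to 0.128).

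The knockdown was then compared with the same siRNAs under LPS and under dexamethasone with LPS, which use other control libraries. Of 1132 genes higher in vehicle, 707 (62.5%) were also higher under LPS, 809 (71.5%) under dexamethasone with LPS and 623 (55.0%) under both. Of 1298 lower in vehicle, 665 (51.2%), 726 (55.9%) and 554 (42.7%) were lower there. Over all tested genes the test called 33.1% under LPS (17.3% higher, 15.8% lower) and 34.3% under dexamethasone with LPS (19.0% higher, 15.3% lower). The call was opposite under LPS for 47 genes that rose and 116 that fell in vehicle.

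The difference of the knockdown effects itself passed the limma test for 1380 genes between LPS and vehicle (11.4%), of which 771 (6.39%) had the higher value under LPS and 609 (5.05%) the lower. Between dexamethasone with LPS and vehicle it passed for 1068 genes (8.85%), 740 (6.14%) and 328 (2.72%). With plain library totals the splits were 567 and 921, and 564 and 434, so the share in each direction depends on the scaling. The descriptions of some LPS and dexamethasone libraries, and of no vehicle library, carry numbers from another range, and without these libraries the counts were 1327 and 1112. Of the genes called in vehicle, the effect differed under LPS for 298 that rose (26.3%) and 345 that fell (26.6%). That difference subtracts the same vehicle effect by which these genes were chosen. A share above the 11.4% of all tested genes is thus in part built in.

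Several falls were smaller or turned round under LPS. Dusp5 differed by -1.97 in vehicle and 1.01 under LPS, a change of 2.99 (adjusted p = 1.36e-06), and Egr2 by -1.37 and 1.34 (change 2.72, adjusted p = 1.93e-09). Cass4, a scaffold of adhesion signalling, differed by -2.82 in vehicle, 0.93 under LPS and 0.21 under dexamethasone with LPS. Its change from vehicle was 3.75 for LPS (adjusted p = 4.41e-09). Ccr3 fell in all 3 treatments, at -3.90, -0.84 and -1.63, and the LPS effect was the smaller (change 3.06, adjusted p = 3.35e-05). Cd14 was lower in vehicle (-0.60) and higher under LPS (0.67), a difference of its own (change 1.27, adjusted p = 2.41e-05).

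Several rises were smaller, absent or of changed sign under LPS or under dexamethasone with LPS. Ccl5 rose by 2.29 in vehicle and differed by 0.17 under LPS and 0.21 under dexamethasone with LPS (changes -2.13 and -2.08, adjusted p = 1.87e-08 and 1.51e-08). Il1rn, higher in vehicle by 1.57, was at -0.57 under LPS (change -2.14, adjusted p = 7.50e-08). The acute phase gene Saa3 was at 1.40 and -1.15 (change -2.55, adjusted p = 5.79e-08). Rsad2 rose by 1.39 in vehicle and 1.81 under dexamethasone with LPS, and its value under LPS was 0.28 (change -1.11, adjusted p = 4.65e-04). Fabp4 kept a rise of 1.77 under LPS but was at -0.03 with dexamethasone (change -1.65, adjusted p = 3.32e-06).

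Counts per list are given side by side for the 3 treatments. Of all tested genes, 9.39% were called higher in vehicle, 17.3% under LPS and 19.0% under dexamethasone with LPS, and 10.8%, 15.8% and 15.3% were called lower. Of 35 antiviral effectors, 23 were higher and none lower in vehicle, 11 and 3 under LPS, and 32 and 1 under dexamethasone with LPS, with medians of 0.40, 0.17 and 0.70. The effect itself differed from vehicle for 9 of them under LPS and 13 under dexamethasone with LPS. Mitotic genes were lower in each treatment, 29, 32 and 36 of 42, with medians of -0.85, -0.84 and -1.12, and the effect differed for 5 and 2, a share near or below the 11.4% and 8.85% of all tested genes. Lysosomal genes were higher for 20, 23 and 23 of 29, and cholesterol synthesis genes lower for 8, 9 and 14 of 20. Of 26 AP-1, EGR and immediate early genes, 4 rose and 7 fell in vehicle, 7 and 3 under LPS, and 10 and 3 under dexamethasone with LPS, and the effect differed from vehicle for 9 in either case.

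Other effects were called in every treatment. Itgax fell in vehicle, LPS and dexamethasone with LPS, with log2 differences of -2.15, -1.29 and -1.72. In the same order Dcstamp was at -2.56, -1.90 and -2.46, and Myc at -1.92, -1.06 and -0.97. Mmp27 rose by 2.72, 2.93 and 2.94, and Irf7 by 1.10, 0.83 and 1.63.

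**Figure D5:**
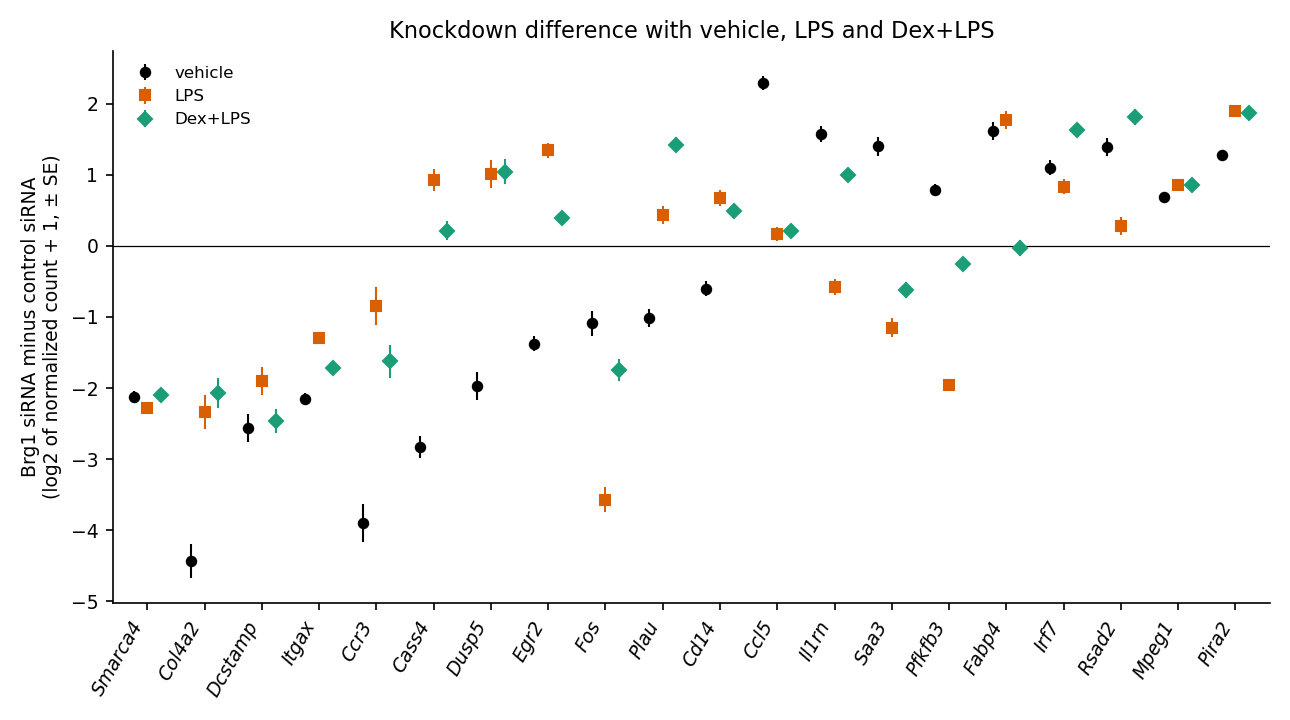
For each of 20 genes the points give the log2 difference, Brg1 siRNA minus control siRNA, in vehicle, LPS and dexamethasone with LPS, and the bars are ± 1 SE from limma. Dusp5 and Egr2 lie below 0 in vehicle and above 0 under LPS, Ccl5 is high in vehicle alone, and Dcstamp, Itgax and Irf7 lie on the same side of 0 in every treatment.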

How the data were processed

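RNA was sequenced from 20 macrophage libraries, 6 of them in vehicle. The deposited table gives 17787 genes as normalized counts, a signal that the authors made with Salmon 1.4.0 and DESeq2 under R 4.1.0 on mm10 (GRCm38.p6), per the submitters' processing notes; whether reads were counted by strand is not given in the sources used here. The table also holds the authors' log2 fold changes, their standard errors (a score with no fixed range) and p-values, used here only for the comparison of calls. Of values above 0, 99.95% were within 0.01 of a whole number of reads once multiplied by the library's size factor, so reads were recovered for edgeR and DESeq2.

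Genes with at least 10 normalized counts in at least 3 of 20 libraries (12061) were tested with limma 3.58.1 (R 4.3.3, trend) after adding a pseudocount of 1 to the normalized counts and taking log2. The 6 treatment and siRNA groups shared 1 model with 14 residual degrees of freedom and Benjamini-Hochberg adjustment. A gene passed at an adjusted p under 0.05. Log2 differences are on this scale, which understates the change of low genes. Folds are ratios of group means. The tests were checked on data simulated from these libraries. Alternatives were pseudocounts of 0.5 and 5, no filter, a filter within vehicle, the vehicle libraries alone, a replicate block, plain library totals, edgeR 4.0.16, DESeq2 1.42.0, leaving out each vehicle library and leaving out the libraries of the second number range.

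The comparison, its gene lists and its tests were chosen with earlier results of these data known. The text names genes from the 20 largest changes in each direction with a group mean of at least 50 and separate groups, the 5 largest called changes in each direction within a list, the 10 largest differences between treatments, and a few fixed genes. Itgam, Tap1, Spp1, Dusp6, Cxcl16, Mmp8, Tmem176a and Fyco1 were added after their values were seen. A gene is called uncertain where 10% or more of its 31-base words occur in other genes. Some genes are not reported here. Promoter windows came from RefSeq (GRCm38.p6). Distances between genes in kb are between their lower chromosome coordinates, whatever the strand, and not between start sites.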

Additional observations from a re-analysis of the deposited data

Results flagged for a closer look

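The knockdown effect under LPS differed from that in vehicle for 1380 genes and that under dexamethasone with LPS for 1068 genes, by the limma test of the difference itself. The genes below had the largest such differences in each direction, or were named for the vehicle comparison, and all values are log2 differences relative to vehicle.

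Under LPS the effect was more positive than in vehicle for Cass4 (3.75), E2f2, a cell cycle factor (3.29), Ccr3 (3.06), Dusp5 (2.99), Ccr2 (2.75), Egr2 (2.72), the cytokine receptor Lifr (2.67) and the glycosyltransferase B3gnt5 (2.63). It was also more positive for N4bp2l1 (4.53) and Pan2 (7.72). Pan2 had 0 counts in all 3 Brg1 siRNA vehicle libraries.

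It was more negative for the mitotic kinesin Kif15 (-3.53), the Aurora A activator Bora (-2.93), Pfkfb3 (-2.75) and Saa3 (-2.55). The difference was -4.26 for the nucleoporin Nup107 and -3.65 for Sipa1l1. Cfb (-4.82), Ints1 (-3.93), Slc37a4 (-7.74) and Gm45837 (-8.15) had values of 0 in 1 or more control vehicle libraries, and 98.5% of the 31-base words of Gm45837 occur in other genes.

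Under dexamethasone with LPS the effect was more positive for Cass4 (3.03), Dusp5 (3.02), the ribonuclease Rnase6 (3.49), the stem cell factor receptor Kit (3.18), the mRNA decay factor Zfp36l1 (2.89), the sphingosine phosphate receptor S1pr1 (2.64) and the plasminogen activator Plau (2.44). Mcm9 (5.24) and Rce1 (4.90) were at 0 in 2 of the 3 Brg1 siRNA vehicle libraries.

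It was more negative for Ccl5 (-2.08), Fabp4 (-1.65), Saa3 (-2.02), the Polycomb protein Cbx7 (-2.14), Zfp667 (-2.10) and Srgap3 (-1.88). The same held for Cfb (-4.48), Ints1 (-4.22), Slc37a4 (-8.61) and Gm45837 (-8.17).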

How the results depend on the processing

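Of the alternatives tried, none reversed the direction of a gene named in the text. Genes whose effect was higher and lower under LPS than in vehicle were 771 and 609, and 567 and 921 with plain library totals. The genes higher and lower in vehicle were 828 to 899 and 1001 to 1069 without single libraries, 1658 and 1851 in a fit of the 6 vehicle libraries alone, 1130 and 1373 with edgeR, 1341 and 1476 with DESeq2, and 969 and 1596 with plain library totals. Genes whose effect differed from vehicle were 1031 to 1164 under LPS and 788 to 910 under dexamethasone with LPS without single vehicle libraries. Replication genes lower were 16, and 9 to 11 without single libraries. DNA repair genes lower were 7, with 13 in the vehicle libraries alone, 11 with DESeq2 and 3 to 8 without single libraries. Ribosomal protein genes lower were 9, with 14 in the vehicle libraries alone and 4 to 8 without single libraries. The cause of these shifts was not tested.

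With the replicate number as a block, 1235 genes were higher and 1411 lower. The labels do not say whether equal numbers pair the libraries. Deviations of same-numbered libraries correlated by -0.065, -0.046 and 0.067, and not every library correlated best with its own number. With 3 libraries per group and values this near 0, the correlations cannot decide whether libraries were paired.

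Of 165 named genes that were called, 147 were called under every alternative and 18 were lost under 1 or more: Adora2a, Arhgef3, Atp6v0d2, Ccr2, Ciita, E2f6, Ier3, Ifngr1, Ints1, Kif15, Lifr, Mcm9, Pan2, Plk1, Rce1, Slc37a4, Tnf and Tyrobp. Of 19 named genes not called, 5 were called under 1 or more. Depth limits the genes near 0, where single reads set the values.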
